A study of Bos taurus with 6 samples.

Results

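Cholesterol synthesis was followed through 8 genes of its enzymes, HMGCS1, MVD, IDI1, FDPS, FDFT1, SQLE, LSS and DHCR7, in bovine fetal fibroblasts (bEFs) with and without the fat-1 transgene. The genes were found by their symbols in the table of expression values that the authors deposited, and all 8 were present among its 17663 genes. FT cells came from 3 cattle fetuses carrying the exogenous fat-1 gene, a worm desaturase gene whose enzyme makes n-3 PUFA out of n-6 PUFA, while WT cells came from 3 Luxi cattle fetuses without it. The fetuses were 50–60 days old. Cells came from the tissue left without head, limbs, viscera and bones, and were grown in DMEM F12 with fetal bovine serum. A single poly(A) library was made per fetus, named FT_1 to FT_3 or WT_1 to WT_3, so that n = 3 per group. The breed of the FT fetuses and the promoter that drove fat-1 are not given in the sources used here, so that transgene and genetic background cannot be told apart.

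Animal cells build cholesterol from acetyl-CoA. The early enzymes form mevalonate and turn it into isoprene units, the middle enzymes join these units into farnesyl diphosphate and squalene, and the late enzymes close squalene into the sterol ring system and trim it to cholesterol. Most of these genes are targets of SREBP-2, a transcription factor that is held in the endoplasmic reticulum while sterols are plentiful and is released when they run short. Cultured fibroblasts also take up cholesterol from the lipoproteins of serum.

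FT_1, FT_2 and FT_3 had total counts of 63366834, 48167642 and 54204446, and WT_1, WT_2 and WT_3 had 69777641, 51310741 and 54271927. Counts of the 8 genes in a library ran from 640 (MVD in WT_3) to 7438 (HMGCS1 in WT_1). FT_1 stood apart from the other FT libraries. The median absolute log2 ratio of a gene between 2 libraries was 0.39 for FT_1 with FT_2 and 0.40 for FT_1 with FT_3, but 0.12 for FT_2 with FT_3 and 0.13–0.17 within WT. Results are therefore also given without FT_1.

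Fibroblast markers were present in every library. All 10 had a mean FPKM (fragments scaled to transcript length and library total) of at least 1. Vimentin (VIM) was the most abundant in the WT libraries and FT_3, and decorin (DCN) in FT_1 and FT_2. Only PDGFRA of the 10 passed the test, as higher in FT cells (log2 fold change 1.06, edgeR adjusted p = 0.0053). Summed over these markers, FPKM came to 8551, 20028 and 19314 for FT_1 to FT_3 and to 21590.4, 21164 and 21395 for WT_1 to WT_3. Of the 5 epithelial markers, KRT5, KRT8 and KRT18 were at 0 in the WT libraries, and EPCAM was at 0 in all libraries but FT_1, where it had an FPKM of 0.57. Their summed FPKM was 304 in FT_1, with KRT5 the most abundant (172), and 7.83–13.9 in the other libraries, most of it from CDH1. FT_1 thus carried epithelial transcripts at a level that no other library had.

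Sums of some other marker lists differed between the groups. The summed FPKM of 4 of 5 mesothelial markers with a value was 206, 45.1 and 46.3 in FT_1, FT_2 and FT_3 and 2.35–3.48 in WT libraries. Most of it came from MSLN, which passed the test as higher in FT cells. UPK3B was at 1.03 in FT_1, but at 0.10 and 0.09 in FT_2 and FT_3, below the 0.20–0.25 of WT libraries. KRT19 was at 6.26 in FT_1 and at most 0.07 elsewhere, and WT1 was at 0 in the FT libraries. The 5 smooth muscle markers, which cultured fibroblasts can also express, summed to 1793, 2959 and 2904 in FT_1, FT_2 and FT_3 and to 551–668 in WT libraries, with ACTA2 the most abundant, and 4 of them passed the test as higher in FT cells. The 3 adipocyte markers summed to 1.41, 5.98 and 7.44 in FT_1, FT_2 and FT_3 and to 129–145 in WT libraries, most of it from FABP4 in all libraries but FT_1, where PLIN1 made up most of the sum. FABP4 passed as lower in FT cells and PLIN1 did not pass, with ADIPOQ at 0 in the FT libraries. The summed FPKM was at most 7.74 for blood (CD14 the most abundant), 3.74 for neural and glial (TUBB3), 2.90 for liver (APOA1), 2.29 for cartilage (SOX9), 1.93 for skeletal muscle (MYF5) and 1.52 for endothelial markers (PECAM1). At these low levels CD68 of blood, TUBB3 and the cartilage marker ACAN still passed as lower in FT cells. The part of these cell types in the results was not tested, and in bulk RNA fewer cells of a type and less RNA per cell cannot be told apart.

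FT cells had less mRNA of HMGCS1, FDPS and SQLE and more of DHCR7 than WT cells. With edgeR's quasi-likelihood test on the counts and Benjamini-Hochberg adjustment over the 13482 genes tested, 3 of the 8 genes were lower in FT cells at an adjusted p under 0.05, against 18.9% of all genes tested. Only DHCR7 was higher, 1 of 8 against 20.1% of all genes tested, and MVD, IDI1, FDFT1 and LSS did not pass. The median log2 fold change of FT over WT was -0.29 for the 8 genes and 0.034 for all genes tested. The FPKM ranges of FT and WT libraries did not overlap in 7 of the 8 genes, MVD being the exception, against 58.7% of all genes tested. With 3 libraries per group, the smallest p of an exact permutation test is 0.10.

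Many genes differed between these groups, and the counts of the members stand against a high background in other fits too. Without FT_1, edgeR placed 4 of the 8 genes lower and 2 higher, against 31.5% and 30.6% of all genes tested. On the deposited FPKM values, limma on log2(FPKM + 1) placed 5 of 8 lower and 1 higher, against 29.2% and 15.0%. At the threshold of the study's methods, a log2 fold change beyond 1 or -1 at an unadjusted p under 0.05, edgeR placed DHCR7 higher (1 of 8, against 10.2% of all genes) and 0 of 8 lower (against 8.96%). With the same threshold DESeq2 had 0 lower (against 9.13%) and 1 higher (against 10.3%), and limma 0 in either direction (against 8.38% lower and 3.77% higher). At an unadjusted p under 0.05 with no fold threshold, edgeR had 4 of the 8 lower and 2 higher, against 23.9% and 25.7% of all genes. DESeq2's adjusted p gave 3 lower and 2 higher, against 20.0% and 21.9%, and edgeR without scaling 5 lower and 1 higher, against 25.2% and 15.2%.

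The scale of the libraries bears on the small differences. The 10 most counted genes held 15.2–15.4% of all counts in FT libraries and 9.86–10.5% in WT libraries, and edgeR's TMM factors, which rescale for this, were 0.934–0.968 in FT libraries and 1.05–1.06 in WT libraries. Without this scaling the median log2 fold change of all genes was -0.12, a shift of -0.15, and 37.6% of edgeR's calls were higher in FT cells in place of 51.6%. In limma on the FPKM values the median was -0.12 as well, and 34.0% of the calls were higher. Values relative to the median of all genes are given for those of the 8 genes that passed with all libraries in edgeR with TMM scaling or in limma.

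HMGCS1 encodes the synthase that forms HMG-CoA, the precursor of mevalonate. The gene (ENSBTAG00000011839, chromosome 20, 31431008 to 31456871 in the authors' table, whose genome build is not given in the sources used here) had an FPKM of 10.2, 8.55 and 9.42 in FT_1, FT_2 and FT_3, and of 20.2, 19.5 and 16.0 in WT_1, WT_2 and WT_3. Every FT library was below every WT library, and FT_1 lay with the other FT libraries. The FT mean was 9.40 ± 0.835 and the WT mean 18.5 ± 2.27 (SD, n = 3), and HMGCS1 was 1.77-fold lower in FT cells on the scaled counts (log2 fold change -0.82, SE 0.118, edgeR adjusted p = 0.0037). It was -0.87 without FT_1, and relative to the median of all genes -0.86 in edgeR and -0.78 in limma.

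MVD encodes the decarboxylase that turns mevalonate diphosphate into isopentenyl diphosphate, the basic isoprene unit. Its FPKM (ENSBTAG00000012059, chromosome 18) was 9.00, 9.05 and 8.37 in FT_1, FT_2 and FT_3 and 6.21, 8.59 and 6.43 in WT_1, WT_2 and WT_3. The groups overlapped, since WT_2 lay above FT_3. The log2 fold change of 0.47 (SE 0.152) did not pass the test with all libraries (edgeR adjusted p = 0.052). It passed when FT_1 (0.47, edgeR adjusted p = 0.0174) or WT_2 (0.63, edgeR adjusted p = 0.0226) was left out and in DESeq2 (adjusted p = 0.0321), and over all alternatives the adjusted p ranged from 0.0174 to 0.168.

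IDI1 encodes the isomerase that interconverts isopentenyl diphosphate and dimethylallyl diphosphate, the unit on which chain building starts. Its FPKM (ENSBTAG00000004075, chromosome 13) was 14.5, 11.1 and 11.9 in FT_1, FT_2 and FT_3 and 18.3, 19.6 and 16.5 in WT_1, WT_2 and WT_3. All FT libraries lay below the WT libraries, with FT_1 the nearest to them. The log2 fold change of -0.38 (SE 0.128) missed the threshold with all libraries (edgeR adjusted p = 0.0575). Without FT_1 it was -0.49 (edgeR adjusted p = 0.00263), and in limma on the FPKM values -0.51 (adjusted p = 0.017), or -0.39 relative to the all-gene median. The adjusted p ranged from 0.00263 to 0.171 over all alternatives, the highest when WT_2 was left out.

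FDPS encodes the synthase that joins the units into farnesyl diphosphate, the last intermediate shared with the non-sterol branches. The gene (ENSBTAG00000003948, chromosome 3, 15311058 to 15320377) had an FPKM of 14.5, 14.0 and 13.7 in FT_1, FT_2 and FT_3, and of 25.3, 30.4 and 27.3 in WT_1, WT_2 and WT_3. The FT libraries were close to each other and well below the WT libraries. FDPS fell from a WT mean FPKM of 27.7 ± 2.58 to an FT mean of 14.1 ± 0.377 (SD, n = 3). On the scaled counts the log2 fold change was -0.82 (SE 0.0908, edgeR adjusted p = 0.0018). It was -0.82 without FT_1 too, and relative to the median of all genes -0.85 in edgeR and -0.80 in limma.

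FDFT1 encodes squalene synthase, which couples farnesyl diphosphate head to head and is the step that commits the chain to sterols. Its FPKM (ENSBTAG00000012432, chromosome 8) was 19.7, 19.6 and 19.7 in FT_1, FT_2 and FT_3 and 23.8, 26.6 and 24.1 in WT_1, WT_2 and WT_3. The FT libraries were nearly identical and all lay below the WT libraries. On the scaled counts the difference was small, with a log2 fold change of -0.175 (SE 0.0768, edgeR adjusted p = 0.12), and it did not pass without FT_1 either (-0.16, edgeR adjusted p = 0.0953). It passed only where libraries were not rescaled, with -0.33 in edgeR on total counts (adjusted p = 0.0187) and -0.32 in limma on log2(FPKM + 1) (adjusted p = 0.015), or -0.19 in limma relative to the all-gene median, and the adjusted p ranged from 0.015 to 0.29 over all alternatives.

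SQLE encodes squalene epoxidase, the oxygen-requiring enzyme that prepares squalene for ring closure and a control point of the late pathway. The gene (ENSBTAG00000005498, chromosome 14, 15144664 to 15167777) had an FPKM of 10.5, 12.2 and 12.8 in FT_1, FT_2 and FT_3, and of 24.9, 24.5 and 20.6 in WT_1, WT_2 and WT_3. FT_1 was the lowest library, and the groups were far apart. SQLE fell from a WT mean FPKM of 23.3 ± 2.37 to an FT mean of 11.8 ± 1.16 (SD, n = 3). On the scaled counts the log2 fold change was -0.82 (SE 0.122, edgeR adjusted p = 0.00422). Without FT_1 it was -0.73, and relative to the median of all genes it was -0.85 in edgeR and -0.80 in limma.

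LSS encodes lanosterol synthase, which closes the epoxide into lanosterol, the earliest sterol of the pathway. Its FPKM (ENSBTAG00000018936, chromosome 1) was 5.04, 7.57 and 8.12 in FT_1, FT_2 and FT_3 and 9.15, 8.58 and 8.87 in WT_1, WT_2 and WT_3. The groups did not overlap, but FT_1 alone was far below the WT libraries. LSS did not pass the test (log2 fold change -0.20, SE 0.194, edgeR adjusted p = 0.456), and without FT_1 the log2 fold change was -0.0052 (edgeR adjusted p = 0.961). Over all alternatives the adjusted p stayed between 0.145 and 0.961.

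DHCR7 encodes the reductase that turns 7-dehydrocholesterol into cholesterol, a final step of the pathway. The gene (ENSBTAG00000016465, chromosome 29, 48285096 to 48304702) had an FPKM of 15.8, 16.6 and 17.3 in FT_1, FT_2 and FT_3, and of 9.32, 8.49 and 7.47 in WT_1, WT_2 and WT_3. All FT libraries lay above all WT libraries. DHCR7 rose from a WT mean of 8.43 ± 0.927 to an FT mean of 16.6 ± 0.737 (SD, n = 3), a 2.20-fold difference on the scaled counts (log2 fold change 1.14, SE 0.107, edgeR adjusted p = 0.00123). It was 1.18 without FT_1, and relative to the median of all genes 1.10 in edgeR and 1.03 in limma.

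**Figure D1:**
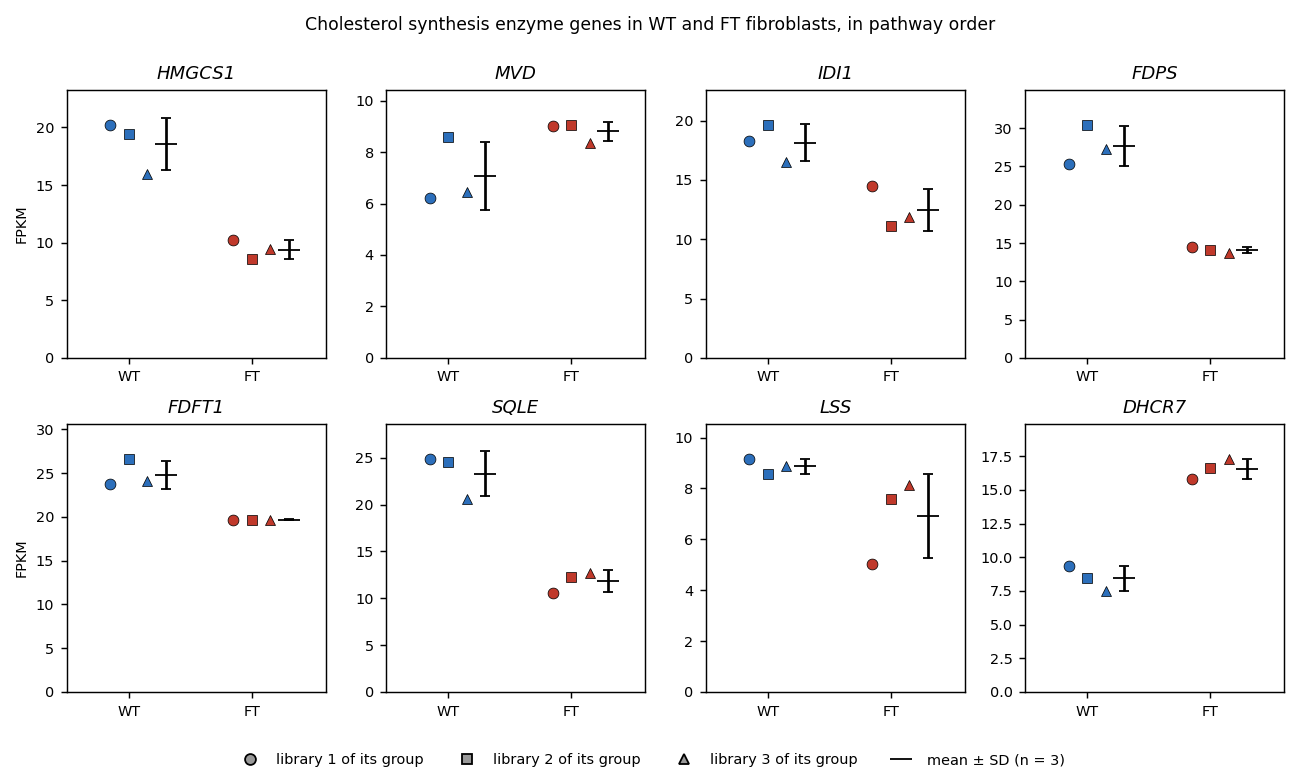
FPKM of the 8 genes in each library, in pathway order, with WT libraries in blue and FT libraries in red, each symbol 1 library and the black bar the mean ± SD of 3. HMGCS1, FDPS and SQLE are lower and DHCR7 is higher in every FT library, MVD overlaps between the groups, and FT_1 is the lowest library for LSS with an FPKM of 5.04.

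The fall of HMGCS1, FDPS and SQLE and the rise of DHCR7 passed the edgeR test with each library left out in turn. Their log2 fold changes then lay between -0.92 and -0.76 for HMGCS1, between -0.88 and -0.75 for FDPS, between -0.90 and -0.73 for SQLE and between 1.06 and 1.21 for DHCR7. The share of all called genes that kept their call in each of these fits is not given here. The kept calls therefore cannot be set against a background. The direction of each of the 8 genes was the same under every scaling tried. The 8 genes lie on 8 different chromosomes. In the table an antisense gene (ENSBTAG00000048672) overlaps HMGCS1, with a mean FPKM of 0.0083, and the other 7 genes overlap none.

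The order of the mRNA levels, compared as FPKM and so per length, differed between the groups. In WT cells FDPS was the highest (27.7), followed by FDFT1 (24.8) and SQLE (23.3), then HMGCS1 (18.5) and IDI1 (18.2), and then LSS (8.87), DHCR7 (8.43) and MVD (7.08). Neighbours within each of these 3 sets had overlapping ranges over the WT libraries, and neighbours across sets did not. In FT cells FDFT1 was the highest (19.7) and DHCR7 came next (16.6), without overlap between them or with FDPS (14.1). FDPS, IDI1 (12.5) and SQLE (11.8) overlapped from neighbour to neighbour, as did HMGCS1 (9.40) and MVD (8.81), while LSS (6.91) was below MVD in every FT library. DHCR7 thus moved from rank 7 of 8 in WT cells to rank 2 in FT cells.

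The ratio of DHCR7 to SQLE, chosen after the values were seen, compares the final reductase with the epoxidase in the same library. In FPKM it was 1.50, 1.36 and 1.36 in FT_1, FT_2 and FT_3 and 0.375, 0.346 and 0.363 in WT_1, WT_2 and WT_3. FT libraries had more mRNA of the final reductase per length than of the epoxidase, and WT libraries had less.

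Profiles of the genes over the 6 libraries were compared as log2(FPKM + 1), centred on the mean of each gene, by the root mean square difference. HMGCS1, FDPS and SQLE were the most alike, at 0.135 for HMGCS1 and SQLE, 0.141 for HMGCS1 and FDPS and 0.147 for FDPS and SQLE. DHCR7 was farthest from FDPS, at 0.924, and nearest to MVD, at 0.349. Among 7735 genes with a symbol and a mean FPKM of at least 5, the nearest profile was that of LIAS for HMGCS1 (0.0473), CDC34 for MVD (0.0513), MATR3 for IDI1 (0.0245) and NTMT1 for FDPS (0.029). For FDFT1 it was SNRNP48 (0.0179), for SQLE VPS50 (0.0484), for LSS YPEL5 (0.036) and for DHCR7 MFSD10 (0.0546). These differences are descriptions over 6 libraries of 2 groups, and many genes separate the groups.

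None of the other pathway genes tested between acetyl-CoA and cholesterol passed as higher in FT cells. Of the 12 looked at here, 10 had values, and NSDHL and EBP were not analysed here. ACAT2, PMVK, LBR and MSMO1 were lower in FT cells, 4 of 10, and 0 of 10 were higher, against 18.9% and 20.1% of all genes tested. The median log2 fold change of the 10 was -0.65. At an unadjusted p under 0.05, edgeR had 5 of the 10 lower and 0 higher (against 23.9% and 25.7% of all genes). At the adjusted p, limma (against 29.2% and 15.0%) and DESeq2 (against 20.0% and 21.9%) also gave 5 lower and 0 higher. Without FT_1, edgeR had 7 of 10 lower and 0 higher, with a median of -0.76, where the shares of all genes rose to 31.5% and 30.6%.

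PMVK, the kinase that makes mevalonate diphosphate just before MVD, had an FPKM of 1.60, 2.66 and 2.28 in FT_1, FT_2 and FT_3 and of 5.44, 7.40 and 7.17 in WT_1, WT_2 and WT_3. No FT library reached the lowest WT library. Its log2 fold change of -1.45 (SE 0.256, edgeR adjusted p = 0.00747) was the lowest of the 18 pathway genes shown, and -1.26 without FT_1. The log2 fold change of MVD, which acts next, had the opposite sign, but MVD did not pass the test and its groups overlapped.

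The pathway opens with ACAT2, a thiolase that makes acetoacetyl-CoA, whose FPKM was 18.0, 14.4 and 15.3 in FT libraries and 29.2, 30.9 and 27.6 in WT libraries. The groups did not overlap, and the log2 fold change was -0.72 (SE 0.103, edgeR adjusted p = 0.00363), and -0.81 without FT_1. ACAT2 overlaps TCP1 on the opposite strand, which had a mean FPKM of 143. The strand setting of the counting is not given in the sources used here, so reads from the shared stretch cannot be told apart. The length of that stretch is not given here.

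Past lanosterol, MSMO1, the sterol methyl oxidase, had an FPKM of 22.5, 16.5 and 18.1 in FT libraries and 37.7, 39.4 and 31.3 in WT libraries. LBR, the lamin B receptor with sterol reductase activity, had 6.07, 5.47 and 6.74 against 11.9, 11.9 and 9.88. Neither gene overlapped between groups. Their log2 fold changes were -0.77 (SE 0.143, edgeR adjusted p = 0.00884) and -0.72 (SE 0.129, edgeR adjusted p = 0.00777), and -0.89 and -0.71 without FT_1.

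In edgeR with TMM scaling, several other enzymes passed only without FT_1. MVK, the kinase that acts on mevalonate, had an FPKM of 5.10 in FT_1, within the WT range of 4.93–5.60, and of 2.03 and 2.35 in FT_2 and FT_3. CYP51A1, the lanosterol demethylase, had 16.8 in FT_1, also within the WT range of 16.0–17.5, and 10.8 and 11.0 in FT_2 and FT_3. HSD17B7, a sterol ketone reductase, had 14.1 in FT_1 and 7.32 and 6.94 in FT_2 and FT_3, against 16.5–21.0 in WT libraries. In all of these FT_1 was the FT library nearest to WT, and without it the log2 fold changes were -1.10, -0.46 and -1.20, each past the test (edgeR adjusted p = 3.01e-05, 7.28e-04 and 1.31e-05), where with all libraries they were -0.59, -0.23 and -0.81 and none passed (edgeR adjusted p = 0.226, 0.331 and 0.0672). Their adjusted p reached 0.445, 0.631 and 0.189 among the alternatives. HSD17B7 also passed with FT_1 in edgeR without scaling (adjusted p = 0.0465), in DESeq2 (adjusted p = 0.0217) and in limma (adjusted p = 0.0289), so that its call hung on the method as well.

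TM7SF2, the other sterol reductase that can take the place of LBR, went the opposite way in FT_1. Its FPKM was 6.10 in FT_1, 0.87 and 0.70 in FT_2 and FT_3 and 0.93–1.42 in WT libraries, and its log2 fold change of 1.32 (SE 0.86, edgeR adjusted p = 0.266) was -0.35 without FT_1. In the table it overlaps VPS51 on the same strand and ZNHIT2 on the opposite strand, so that its reads are uncertain. ERG28 (0.035 with TMM scaling, -0.11 without scaling) and SC5D (0.12 and -0.033) turned direction with the scaling and did not pass in either fit.

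**Figure D2:**
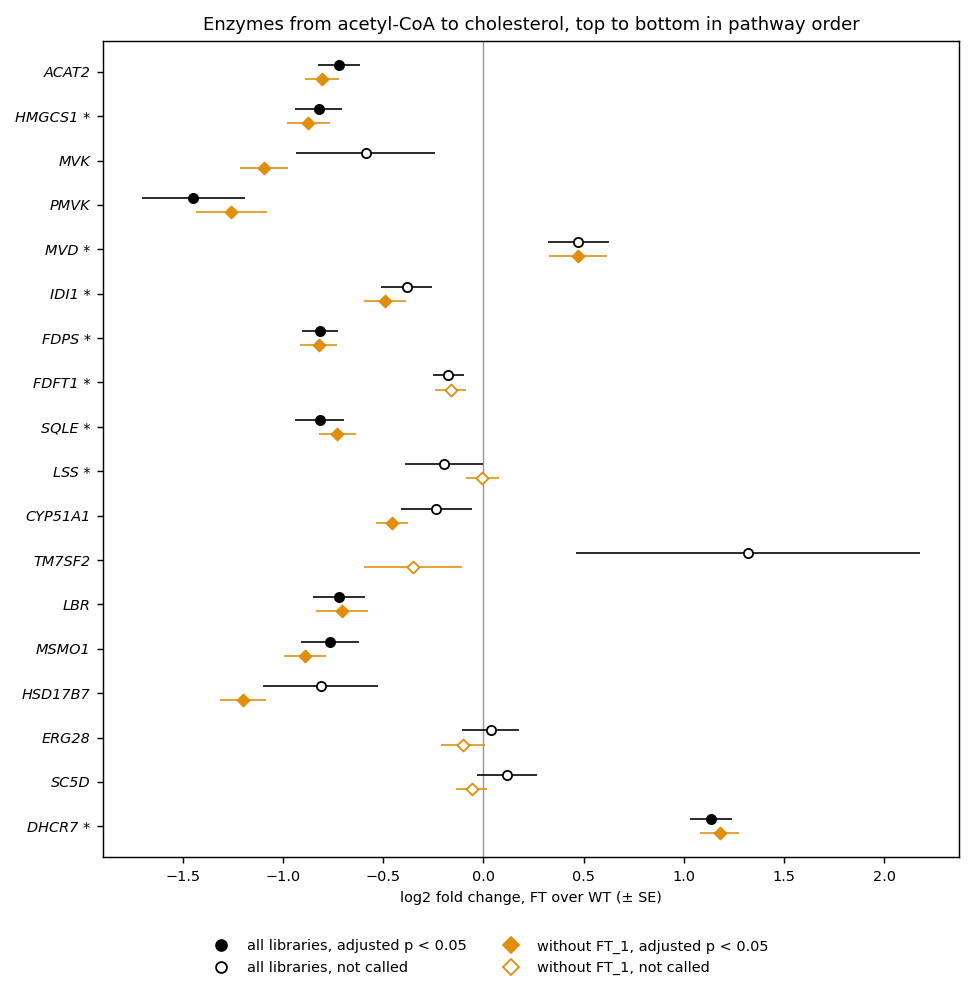
Log2 fold change of FT over WT with its standard error for 18 pathway genes with values, in pathway order from top to bottom. The 8 genes followed here are marked by an asterisk. Black circles use all 6 libraries and orange diamonds leave out FT_1, and filled symbols passed an adjusted p of 0.05. DHCR7 is the gene that passed as higher in both fits, and TM7SF2 moves from 1.32 to -0.35 when FT_1 is left out.

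**Figure D3:**
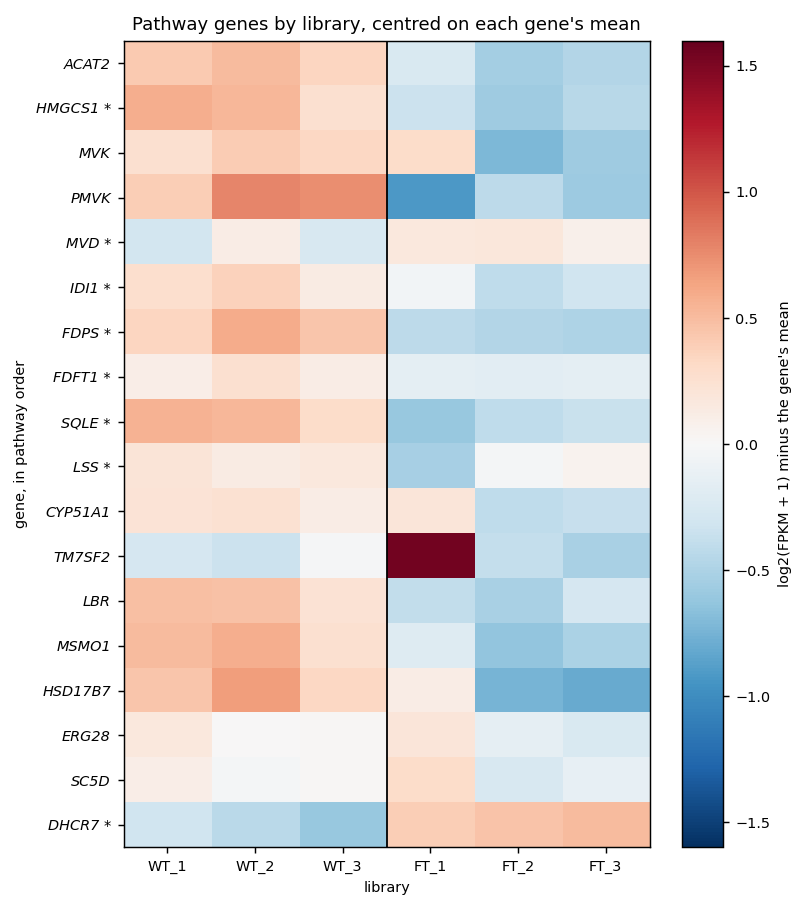
Log2(FPKM + 1) of the same 18 genes in each library, centred on the mean of each gene, with red above and blue below that mean. HMGCS1, FDPS, SQLE, ACAT2 and MSMO1 are below their means in the 3 FT libraries and DHCR7 is above, while MVK, CYP51A1 and HSD17B7 are above their means in FT_1 but below in FT_2 and FT_3.

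Genes that control SREBP or handle sterols moved in both directions. Of the 27 looked at here 24 had values, MARCHF6 under its older symbol MARCH6, and 23 were tested, since ABCG1 was at 0 in all libraries but FT_1. In edgeR 8 of 23 were higher and 4 lower in FT cells, against 20.1% and 18.9% of all genes, and the median log2 fold change was 0.24. Without scaling the split was 6 higher and 7 lower (against 15.2% and 25.2%), and in limma on the FPKM values 5 higher and 8 lower (against 15.0% and 29.2%). Leaving out FT_1, edgeR had 12 higher and 9 lower, against 30.6% and 31.5%. Of the 12 that passed, 4 (SREBF2, NPC2, NR1H2 and RNF139) also passed with each library left out in turn. Calls over all genes also fell when a library was left out, from 5261 to 3047 without WT_1. The share of all genes that kept their call throughout is not given here.

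SREBF2, the gene of SREBP-2, had an FPKM of 23.7, 28.9 and 31.7 in FT_1, FT_2 and FT_3 and of 17.9, 18.5 and 19.3 in WT_1, WT_2 and WT_3. All FT libraries were above the WT libraries. SREBF2 rose by 0.76 on the log2 scale (SE 0.131, edgeR adjusted p = 0.00708) and by 0.87 without FT_1. This is the mRNA of the precursor, and the processed form of the protein that enters the nucleus was not measured.

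SREBF1, the gene of the related factor SREBP-1 that acts mainly on fatty acid synthesis, had an FPKM of 9.59 in FT_1, near the WT libraries with 8.81, 7.97 and 9.06, and of 23.4 and 24.1 in FT_2 and FT_3. The FT libraries were thus split, with FT_1 just above the WT range. The log2 fold change was 1.31 (SE 0.358, edgeR adjusted p = 0.0317) with all libraries and 1.63 without FT_1. It lost its call when FT_2, FT_3 or any of the WT libraries was left out (edgeR adjusted p = 0.0871–0.114) and in limma (adjusted p = 0.0638).

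SCAP, the escort protein that carries SREBP out of the endoplasmic reticulum, had an FPKM of 21.5, 11.7 and 12.6 in FT_1, FT_2 and FT_3 and of 8.41, 7.46 and 8.66 in WT_1, WT_2 and WT_3. It was higher in every FT library, most in FT_1, and rose by 1.06 on the log2 scale (SE 0.237, edgeR adjusted p = 0.0166), or by 0.74 without FT_1. The call was lost when any of the WT libraries was left out (edgeR adjusted p = 0.0569–0.0736). The retention proteins INSIG1 and INSIG2 and the protease MBTPS1 did not pass with all libraries in edgeR with TMM scaling (log2 fold changes -0.039, -0.44 and 0.34). Without FT_1 INSIG1 was 0.18 and again did not pass, whereas INSIG2 (-0.35, edgeR adjusted p = 0.0333) and MBTPS1 (0.24, edgeR adjusted p = 0.00983) did. DESeq2 too called INSIG2 and MBTPS1 (adjusted p = 0.0389 and 0.0292), and INSIG2 also passed in limma (adjusted p = 0.0159), in edgeR without scaling (adjusted p = 0.0197) and in edgeR without WT_2 (adjusted p = 0.047).

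MYLIP, a ubiquitin ligase whose gene is a target of the liver X receptors, had an FPKM of 5.23, 15.0 and 14.2 in FT libraries and of 3.55, 3.43 and 3.84 in WT libraries. FT_1 was the lowest FT library here, and the log2 fold change of 1.83 (SE 0.406, edgeR adjusted p = 0.0156), 2.19 without FT_1, lost its call when any of the WT libraries was left out (edgeR adjusted p = 0.0594–0.0697).

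NPC2, the lysosomal protein that hands over cholesterol set free from lipoproteins, had an FPKM of 132, 144 and 135 in FT_1, FT_2 and FT_3 and of 301, 293 and 274 in WT_1, WT_2 and WT_3. The groups were far apart. NPC2 fell by 0.92 on the log2 scale (SE 0.085, edgeR adjusted p = 0.00119) and by 0.88 without FT_1. Its partner NPC1 did not pass and turned from -0.15 to 0.17 without FT_1, in which its FPKM was 7.96 against 18.0–20.3 in all other libraries. In the table NPC1 overlaps RMC1 on the opposite strand, which adds to the uncertainty of its values.

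Of the other genes of the list that passed, those of the endocytic receptor LRP1 (log2 fold change 0.87), the oxysterol binding protein OSBP (0.33) and the liver X receptors NR1H2 (0.48) and NR1H3 (0.39) were higher in FT cells. SOAT1, the enzyme that esterifies cholesterol for storage (-0.43), the efflux transporter ABCA1 (-0.73) and the ubiquitin ligase RNF139 (-0.54) were lower. LRP1 lost its call when WT_1 or WT_2 was left out, ABCA1 with any of the WT libraries, SOAT1 with FT_2 or any of the WT libraries, and OSBP and NR1H3 with any library but FT_1. OSBP and NR1H3 also did not pass without scaling or in limma, and NR1H3 overlaps ACP2 on the opposite strand (mean FPKM 5.58), which leaves its values uncertain.

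Farnesyl diphosphate also feeds the non-sterol branches, and 6 of 12 genes there were lower in FT cells and 0 higher, against 18.9% and 20.1% of all genes, the median log2 fold change being -0.31. At an unadjusted p under 0.05, edgeR had 6 lower and 1 higher (against 23.9% and 25.7%). At the adjusted p, limma (against 29.2% and 15.0%) and DESeq2 (against 20.0% and 21.9%) had 6 lower and 0 higher. RABGGTB, a subunit of the transferase that prenylates Rab proteins, had an FPKM of 15.7, 12.7 and 15.0 in FT_1, FT_2 and FT_3 and of 34.9, 38.1 and 28.8 in WT_1, WT_2 and WT_3. PDSS2, a subunit of the synthase of the ubiquinone side chain, had 2.58, 2.40 and 2.03 against 5.32, 5.40 and 5.35. Both were lower in every FT library, with log2 fold changes of -1.07 (SE 0.138, edgeR adjusted p = 0.00268) and -1.04 (SE 0.138, edgeR adjusted p = 0.00294), and both passed with each library left out in turn. Without FT_1 they were -1.12 and -1.10.

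Of the other 4 that passed, the log2 fold change was -1.15 for PDSS1, the partner of PDSS2, -0.53 for COQ2, which attaches the ubiquinone side chain, -0.50 for GGPS1, which extends farnesyl to geranylgeranyl diphosphate, and -0.44 for PGGT1B, a prenyltransferase subunit. PDSS1 lost its call without WT_2, PGGT1B without WT_1, COQ2 without FT_3 or any of the WT libraries, and GGPS1 without FT_2, FT_3, WT_1 or WT_2. The 6 that did not pass were DHDDS, NUS1, FNTA, FNTB, RABGGTA and COX10, and DHDDS turned from 0.095 with TMM scaling to -0.056 without scaling. Without FT_1, 8 were lower and 1, COX10, was higher, against 31.5% and 30.6% of all genes.

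**Figure D4:**
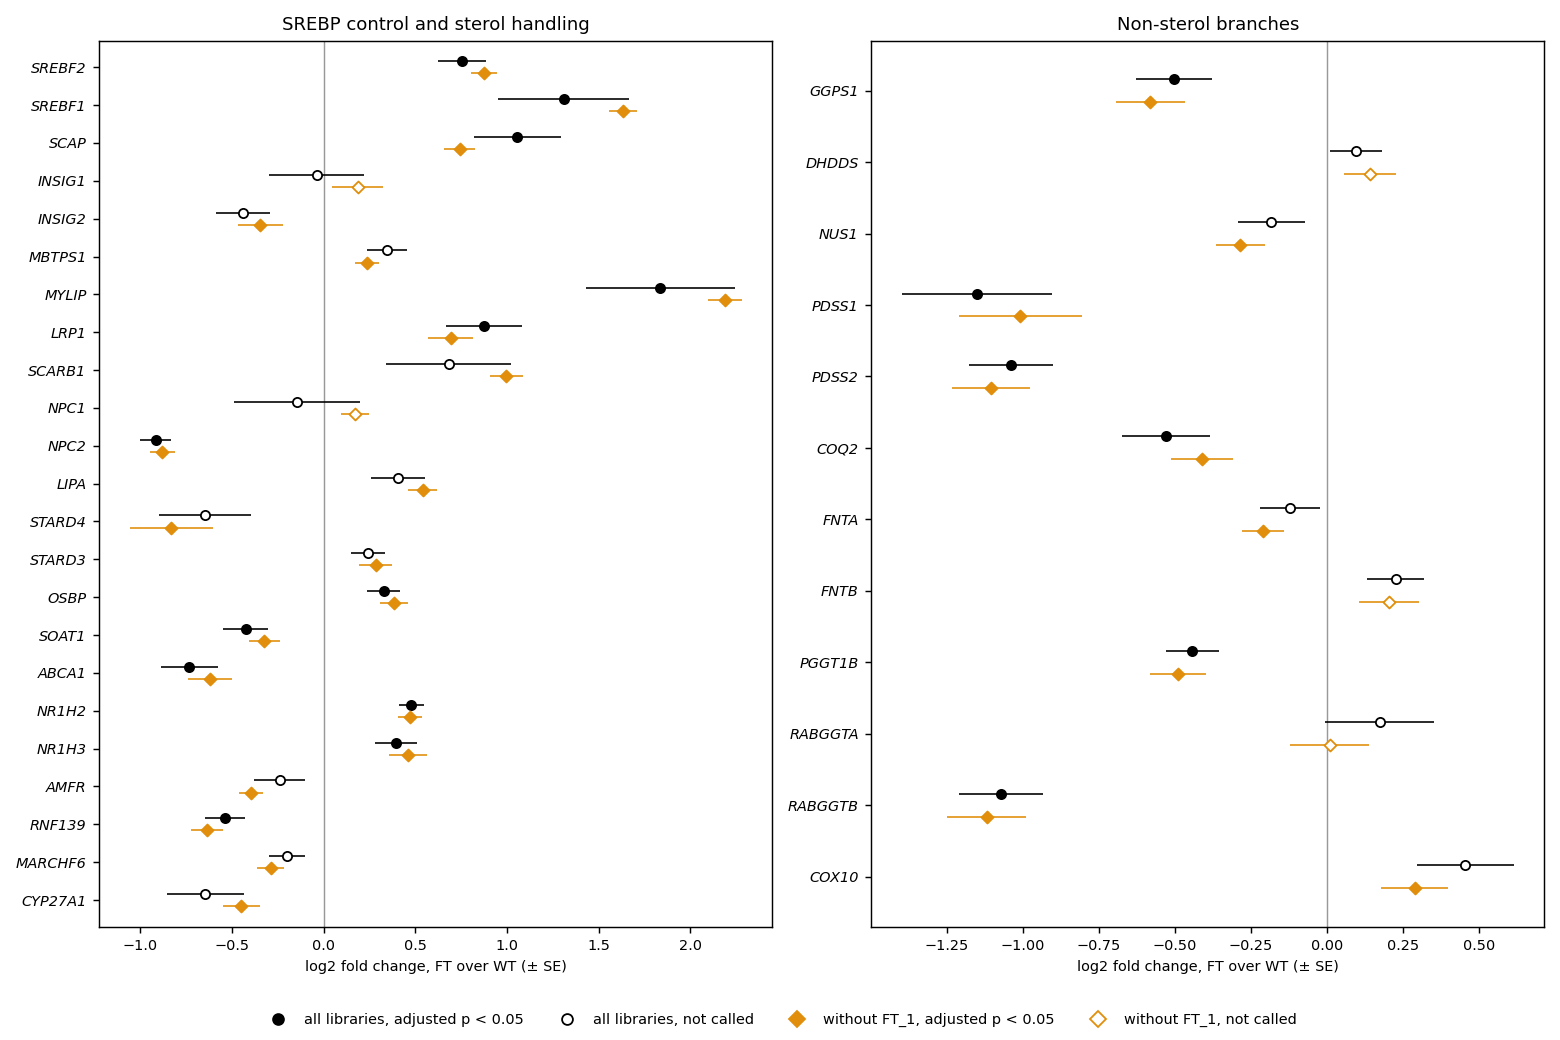
Log2 fold change of FT over WT with its standard error for 23 tested genes of SREBP control and sterol handling (left) and the 12 genes of the non-sterol branches (right). Black circles use all 6 libraries, orange diamonds leave out FT_1, and filled symbols passed an adjusted p of 0.05. Genes that passed lie on both sides of 0 on the left, and with all libraries only below 0 on the right.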

How the data were processed

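RNA was measured in bEFs of 3 FT and 3 WT fetuses, 1 library each. Per the study's methods, HISAT was used to map the paired-end reads to a reference from UCSC, Perl scripts to merge transcripts, and StringTie with edgeR to estimate expression. The submitters' processing notes list HISAT2 2.0, StringTie 1.3.0, Bowtie 0.12.2 and the mouse build mm8 without roles, while the gene identifiers are bovine. The methods and the sample records name different sequencers. The deposited table holds raw counts per gene for each library. The FPKM values beside them were deposited by the authors and are scaled by transcript length and library total. The genome build, the annotation release and the strand setting are not given in the sources used here.

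Counts were tested with edgeR 4.0.16 in R 4.3.3 (filterByExpr, TMM scaling, quasi-likelihood test, FT against WT, no covariate), with Benjamini-Hochberg adjustment over 13482 genes and a threshold of 0.05. The standard error is the absolute log2 fold change divided by the square root of the F statistic. All 8 members passed the filter. limma 3.58.1 on log2(FPKM + 1), run on the 12247 genes whose mean FPKM reached 0.5, and DESeq2 1.42.0 were alternatives, beside other scalings, no filter, a pseudocount of 0.1, a robust prior, the study's threshold, a replicate block and leaving out each library. The test was checked on simulated counts drawn from the WT proportions with the same spread in every library. No simulated library stood apart as FT_1 did, so the check does not cover that case. Named genes were all members, the genes of the 3 other lists that passed or came among their first 12, and the nearest profile of each member, and further genes were named where their values are given. The older symbol of 1 gene was matched through RefSeq's gene table for ARS-UCD2.0. Of the genes planned for the lists, 4 are not reported here and were left out of the counts and figures. The members, lists and markers were chosen with earlier results of these data known.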

Additional observations from a re-analysis of the deposited data

How the results depend on the processing

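In all, 15 alternatives were run. Of 120 values for the 8 members, 107 kept their direction and their side of the threshold, 10 passed it where the reported value did not, 3 fell below it and 0 turned direction. The 3 were HMGCS1, FDPS and SQLE at the study's threshold, whose fold limit they miss. That threshold left 1 of the 8 members, 1 other pathway enzyme, 3 genes of SREBP control and sterol handling, 3 of the non-sterol branches and 2586 of all genes, in place of 4, 4, 12, 6 and 5261.

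With 1 library left out in turn, the counts ranged over 4–6 for the members, 4–7 for the other enzymes, 4–21 for SREBP control and sterol handling, 3–9 for the non-sterol branches and 3047–8552 for all genes. The highest were without FT_1 and the lowest of the last 3 without WT_1, equalled without WT_2 for the non-sterol branches. Why was not tested.

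The replicate numbers come from the sample names and mark different fetuses. Deviations of same-numbered libraries from their group means had correlations of 0.0021, -0.018 and 0.014 across genes. Those of differently numbered libraries lay between -0.024 and 0.026. FT_1 lay far from FT_2 and FT_3, so these values can say little on pairing, and the main test used none. With a replicate block, the counts were 4, 4, 8, 5 and 3579.

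Direction turned for genes that did not pass. Without scaling, in limma and in limma with the smaller pseudocount, the log2 fold change was -0.11, -0.13 and -0.13 for ERG28, -0.033, -0.058 and -0.062 for SC5D, and -0.056, -0.058 and -0.063 for DHDDS. With 1 library left out in turn it ranged from -0.35 to 1.76 for TM7SF2, from -0.10 to 0.12 for ERG28, from -0.060 to 0.22 for SC5D, from -0.27 to 0.18 for INSIG1 and from -0.41 to 0.17 for NPC1, turning without FT_1 in each. INSIG1 also turned without WT_1 (0.056) and ERG28 without WT_2 (-0.0012). The cause was not tested.

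The 3 fetuses per group limit the precision, and 1 library (FT_1) sets much of the spread in FT cells.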
